A study of Mus musculus with 6 samples.

Results

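Transforming growth factor β (TGF-β) signals are damped by the genes they switch on, and 8 genes of this feedback and its targets were followed here in mouse primary articular chondrocytes depleted of *Sephs1*, the gene of selenophosphate synthetase 1. The set comprised the feedback inhibitors *Pmepa1*, *Smad7*, *Smad6* and *Bambi*, the corepressors *Ski* and *Skil*, and the matrix genes *Tgfbi* and *Ltbp2*. Each was matched by its gene symbol, and all 8 were found among the 24532 genes of the table. All 8 also had at least 1 read in every library and so were among the 14223 genes tested. The genes were chosen on their siRNA contrast in these same libraries, so their differences between siRNA groups are given as a description, with no test of their own.

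The cells came from the knee cartilage of ICR mice, an outbred stock, at an age of 5 days, and were grown in 10% serum at 3% O2. Before siRNA was added they were treated with hyaluronidase, and serum-free conditions are stated for this step. In one group they received a negative control siRNA and in the other a *Sephs1* siRNA, each at 50 nM, with 12 h of exposure and then 48 h in fresh medium, and the transfection was done 2 times. Each group held 3 libraries of polyadenylated RNA, 1 for each biological replicate. A single *Sephs1* siRNA condition was sequenced, so effects of *Sephs1* loss and of this siRNA cannot be told apart. The libraries held between 58214060 and 80887889 reads counted to genes. *Sephs1* (chromosome 2, 4881564 to 4910557 of GRCm38, the mm10 build) stood at 50.7, 44.7 and 44.7 CPM (counts for every 1000000 reads, after TMM scaling between libraries) in control replicates 1, 2 and 3 and at 36.1, 24.9 and 21.5 CPM with *Sephs1* siRNA, so that the target was lowered by different amounts but not removed. Its log2 fold change was -0.76. The adjusted p was 0.392 by edgeR, 0.040 by edgeR with the replicate number as a block and 0.0181 by DESeq2. Chondrocyte markers were abundant in every library, with *Col2a1*, the main cartilage collagen, at 67552 CPM or more, *Sox9* at 120 CPM or more and *Acan* at 6850 CPM or more (marker levels are relative to the total reads of a library, without TMM scaling). Of 11 macrophage and leukocyte markers, 3 had no read in any library (*Itgam*, *C1qa* and *Tyrobp*), and the list summed to between 9.09 and 14.01 CPM. In such bulk RNA, fewer cells of a kind and less RNA per cell cannot be told apart.

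TGF-β ligands are stored in cartilage matrix in latent form. Once released, they bind serine/threonine kinase receptors that phosphorylate SMAD2 and SMAD3, which join SMAD4 and switch on target genes, whereas bone morphogenetic proteins (BMPs) act through SMAD1, SMAD5 and SMAD9. Among the induced genes are inhibitors that act on the receptors or on the SMADs and so shut the signal down. In articular cartilage, TGF-β signalling is known to hold back hypertrophic maturation and to sustain matrix production.

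The 8 genes spanned a wide range of abundance in control cells, with the matrix genes at the top and the inhibitory SMADs and *Bambi* at the bottom. These levels took no part in the choice of genes and are given in FPKM, the authors' own values, in which reads are divided by transcript length and by library size. *Tgfbi* led with 194 ± 37.4 FPKM (SD, n = 3), above 98% of the genes tested. *Ltbp2* followed at 59.5 ± 14.8 FPKM (SD, n = 3), and *Ski* came next at 33.8 ± 2.87 FPKM (SD, n = 3). *Pmepa1* stood at 20.7 ± 4.54 FPKM (SD, n = 3) in control cells and at 8.15 ± 0.961 FPKM (SD, n = 3) with *Sephs1* siRNA, the only member whose levels did not overlap between the groups. *Skil* was at 7.04 ± 1.21 FPKM (SD, n = 3), well below its relative *Ski*. At the low end, *Smad6* was at 4.95 ± 0.468 FPKM, *Smad7* at 4.75 ± 1.11 FPKM and *Bambi* at 4.22 ± 1.06 FPKM (SD, n = 3 each). The control ranges of neighbours in this order did not overlap from *Tgfbi* down to *Smad6*, whereas those of *Smad6*, *Smad7* and *Bambi* did, so the last 3 did not differ beyond their spread. With 3 libraries a group, no exact permutation test can give a two-sided p below 0.1.

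**Figure D1:**
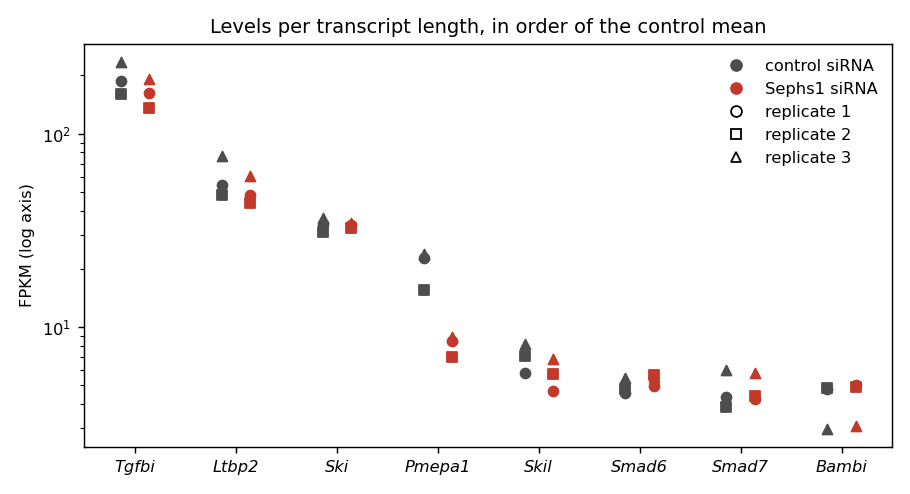
Authors' FPKM (log axis) of the 8 genes in each of the 6 libraries, grey for control siRNA and red for *Sephs1* siRNA, with marker shapes for replicates 1, 2 and 3; the genes are ordered by their control mean, from *Tgfbi* at 194 FPKM to *Bambi* at 4.22 FPKM. The red points of *Pmepa1* lie between 7.06 and 8.87 FPKM, below its grey points at 15.5 to 23.8 FPKM, and those of the other genes overlap with the grey.

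*Pmepa1* showed by far the lowest ratio among the 8. It encodes a transmembrane protein that binds SMAD2 and SMAD3 and keeps them from the receptor, and it lies on chromosome 2 from 173224458 to 173276731. Its count was 109.9, 73.7 and 109 CPM in control replicates 1, 2 and 3, and 39.0, 32.3 and 39.1 CPM in the *Sephs1* siRNA replicates. Every *Sephs1* siRNA library thus lay below every control library, and the highest of them was 39.1 CPM against a lowest control of 73.7 CPM. The level was 0.377 times that of control, a log2 fold change of -1.41 with a standard error of 0.17, and it was -1.50, -1.19 and -1.48 in replicate pairs 1, 2 and 3. Only 19 of the 14223 genes tested had a lower log2 fold change. Counting error was no more than 2.08% of any of these counts, which rested on 2310 to 8165 reads. Leaving out 1 library at a time moved the value between -1.58 and -1.32.

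Within each library, *Pmepa1* can also be set against another feedback inhibitor. The ratio of *Pmepa1* to *Smad7* FPKM was 5.24, 4.01 and 3.96 in the control libraries and 2.01, 1.59 and 1.53 with *Sephs1* siRNA. Against *Tgfbi*, the most abundant of the 8, the *Pmepa1* ratio was 0.122, 0.0973 and 0.102 in control cells and 0.0528, 0.0519 and 0.0460 with *Sephs1* siRNA. Neither ratio overlapped between the groups. The ratios restate the difference in *Pmepa1* relative to these genes, without any scaling between libraries. The genes compared were themselves chosen on this contrast, so the ratios are a description and add no support.

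**Figure D2:**
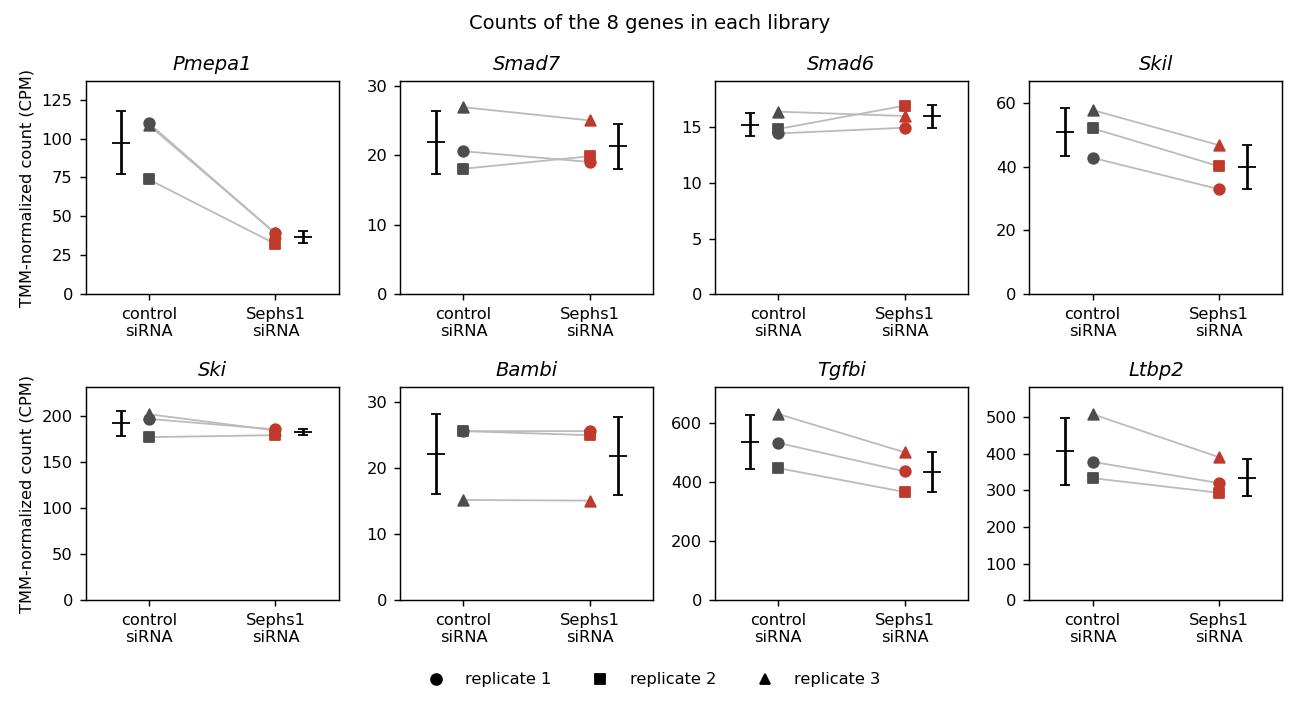
TMM-normalized counts (CPM, axes from 0) of the 8 genes; grey lines join libraries with the same replicate number, and black bars beside the points give mean ± SD of the 3 libraries of a group. *Pmepa1* separates the groups, *Skil*, *Tgfbi* and *Ltbp2* slope down in each of the 3 pairs with overlapping groups, and *Bambi* is lowest in replicate 3 of either group.

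The corepressors of the SKI family, which bind SMAD complexes on DNA and silence their targets, differed in their values. *Skil* encodes SnoN, a protein that TGF-β signals first degrade and then induce, and lies on chromosome 3 from 31095058 to 31122923. It was at 42.8, 52.0 and 57.7 CPM in control replicates 1, 2 and 3 and at 32.9, 40.1 and 46.7 CPM with *Sephs1* siRNA. Each *Sephs1* siRNA library was below the control library of its own number, but the groups overlapped. The log2 fold change of *Skil* was -0.35 (standard error 0.16), and it was -0.38, -0.38 and -0.31 in the pairs. It ranged from -0.48 to -0.24 with 1 library left out. *Ski* (chromosome 4, 155154075 to 155222535) was at 197, 177 and 202 CPM in control cells and at 185, 179 and 184 CPM with *Sephs1* siRNA, so that its groups overlapped and pair 2 was slightly higher. Its log2 fold change was -0.07 (standard error 0.07). The ratio of *Skil* to *Ski* FPKM in a library was 0.170, 0.230 and 0.224 in control replicates 1, 2 and 3 and 0.139, 0.176 and 0.199 with *Sephs1* siRNA. It was lower in each pair, and the groups overlapped.

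The matrix genes of the set were both lower in each replicate pair. *Tgfbi* encodes a secreted protein of the matrix that binds integrins and collagens, and is found on chromosome 13 from 56609586 to 56639359. It was at 533, 448 and 631 CPM in control replicates 1, 2 and 3 and at 436, 367 and 501 CPM with *Sephs1* siRNA, with overlapping groups and replicate 3 highest in either. Its log2 fold change was -0.31 (standard error 0.16), and -0.29, -0.29 and -0.33 in the pairs. It ranged from -0.43 to -0.17 with 1 library left out, and was -0.17 without control replicate 3. *Ltbp2* (chromosome 12, 84783212 to 84876558) encodes a fibrillin-binding protein of microfibrils that, unlike its relatives, does not bind latent TGF-β. Its control values were 378, 333 and 508 CPM, and those with *Sephs1* siRNA were 319.7, 293 and 390.1 CPM. Replicate 3 was again highest in both groups, which overlapped. The log2 fold change of *Ltbp2* was -0.28 (standard error 0.18), with -0.24, -0.19 and -0.38 in the pairs, and it was -0.09 without control replicate 3, which held the highest value. *Ltbp2* shared 764 exon bases with the antisense gene *D030025P21Rik* in the GENCODE annotation of this build, and whether the counting used strand is not stated. That gene held 29 to 57 reads a library, between 0.134% and 0.265% of the *Ltbp2* reads. None of the other 7 genes shared exon bases with another annotated gene.

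Promoter sequences, from 250 bases before to 50 bases after a gene's start, were held in the RefSeq table of GRCm38.p6 for 4 of the 8 genes, *Ski*, *Smad6*, *Ltbp2* and *Tgfbi*. They were searched on both strands for CAGAC, the short element bound by SMAD3 and SMAD4, for GTCTAGAC, a palindrome bound by SMAD3 and SMAD4, and for GGCGCC, an element bound by SMAD1 and SMAD5. GTCTAGAC holds neither CAGAC nor its reverse complement, so no match counts for both. CAGAC was present in 49.6% of 32817 promoter windows of this length, GTCTAGAC in 0.213% and GGCGCC in 11.9%. The 3 windows below are shown because they hold matches to the SMAD3 and SMAD4 element or to the palindrome, which are in capitals along with the single GGCGCC of *Tgfbi*. They lie at chr12:84876442-84876741 (minus strand), chr13:56609336-56609635 (plus strand) and chr9:64022010-64022309 (minus strand), and are written 5′ to 3′ along the gene.
Ltbp2: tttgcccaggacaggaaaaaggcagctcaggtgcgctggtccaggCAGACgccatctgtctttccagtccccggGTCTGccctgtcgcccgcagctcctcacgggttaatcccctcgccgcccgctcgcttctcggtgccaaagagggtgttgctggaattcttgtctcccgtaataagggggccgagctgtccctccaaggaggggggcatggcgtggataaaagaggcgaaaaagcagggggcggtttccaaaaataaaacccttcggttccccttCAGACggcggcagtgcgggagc
Tgfbi: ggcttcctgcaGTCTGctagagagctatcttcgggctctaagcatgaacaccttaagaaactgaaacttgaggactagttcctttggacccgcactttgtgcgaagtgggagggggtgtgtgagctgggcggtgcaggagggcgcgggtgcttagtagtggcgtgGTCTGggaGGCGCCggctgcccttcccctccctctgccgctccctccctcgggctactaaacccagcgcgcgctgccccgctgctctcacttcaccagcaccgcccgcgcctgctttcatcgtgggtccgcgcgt
Smad6: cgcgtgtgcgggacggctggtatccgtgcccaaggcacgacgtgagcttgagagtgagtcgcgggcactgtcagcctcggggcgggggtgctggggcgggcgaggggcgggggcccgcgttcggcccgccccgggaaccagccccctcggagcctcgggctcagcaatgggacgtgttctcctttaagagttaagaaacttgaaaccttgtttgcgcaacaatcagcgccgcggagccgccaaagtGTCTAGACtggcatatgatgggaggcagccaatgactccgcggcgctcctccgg

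*Ltbp2* held 3 CAGAC matches, a number reached by 3.90% of all windows, and *Tgfbi* held 2, reached by 16.2%. *Smad6* held the palindrome, its leftmost base 4 bases before the transcript start that the promoter table uses, and *Ski* held a GGCGCC and neither of the other motifs. The starts in that table, 64022059 for *Smad6* and 84876491 for *Ltbp2*, lie inside the gene spans given here, which run to the outermost annotated transcript. A match describes the letters of the window only. The 4 windows held do not include *Pmepa1* or *Skil*, and no relation of the motifs to the fold changes was tested.

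The inhibitory SMADs and *Bambi* gave values close to those of control. *Smad7* blocks activated receptors of both the TGF-β and the BMP branch and recruits ubiquitin ligases to them (chromosome 18, 75367365 to 75395935). It was at 20.55, 18.03 and 26.88 CPM in control replicates 1, 2 and 3 and at 19.01, 19.84 and 24.98 CPM with *Sephs1* siRNA, so that 2 pairs were lower, 1 was higher and the groups overlapped. Its log2 fold change was -0.04, with a standard error of 0.18 without the pairing and of 0.07 with it. The sign turned to 0.03 on log2(FPKM + 0.1) values, where the median over all genes tested was 0.06. The log2 fold change of *Smad7* was thus close to 0 in either. It ranged from -0.17 to 0.14 with 1 library left out. *Smad6*, which acts mainly on the BMP branch, lies on chromosome 9 from 63953076 to 64022085. Its control values were 14.45, 14.85 and 16.41 CPM and those with *Sephs1* siRNA were 14.97, 16.95 and 16.02 CPM, with overlapping groups. The log2 fold change of *Smad6* was 0.07 (standard error 0.09), the only positive value among the 8. *Bambi* encodes a pseudoreceptor without a kinase domain that takes the place of a working receptor (chromosome 18, 3507011 to 3516404). It was at 25.7, 25.6 and 15.2 CPM in control cells and at 25.7, 25.0 and 15.1 CPM with *Sephs1* siRNA. The libraries of a pair nearly coincided, whereas replicate 3 was far below the others in both groups. The log2 fold change of *Bambi* was -0.01 with a standard error of 0.27 without the pairing and of 0.05 with it, it was 0.04 on log2(FPKM + 0.1) values, and it ranged from -0.23 to 0.19 with 1 library left out.

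**Figure D3:**
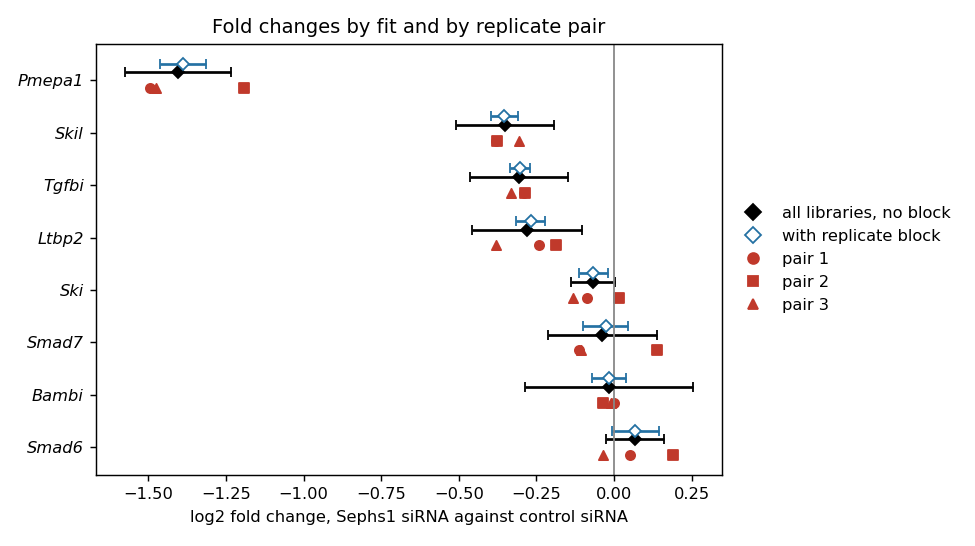
Log2 fold change of each gene with *Sephs1* siRNA against control siRNA; black diamonds give the fit over all libraries and blue open diamonds the fit with the replicate number as a block (bars: standard error), and red symbols give replicate pairs 1, 2 and 3. *Pmepa1* lies at -1.41, *Skil*, *Tgfbi* and *Ltbp2* between -0.35 and -0.28 with every pair below 0, and the other 4 between -0.07 and 0.07.

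Variation between replicates was as large as most of these differences and followed the replicate number for some of the genes. The same replicate was highest in both groups for 5 of them (*Smad7*, *Skil*, *Bambi*, *Tgfbi* and *Ltbp2*), as for 55.0% of all genes tested. For *Pmepa1*, *Smad6* and *Ski* the highest library was replicate 1, 3 and 3 in control cells. With *Sephs1* siRNA it was replicate 3, 2 and 1. Replicate 3 was the highest library of both groups for *Smad7*, *Skil*, *Tgfbi* and *Ltbp2*, as it was for 22.1% of all genes tested, and the lowest of both groups for *Bambi*, as for 24.2%. In control cells, the highest library exceeded the lowest by a factor of 1.69 for *Bambi*, 1.52 for *Ltbp2*, 1.49 for *Smad7* and 1.49 for *Pmepa1*. With *Sephs1* siRNA this factor was 1.70 for *Bambi* and 1.21 for *Pmepa1*. *Smad6* and *Ski* varied least, with coefficients of variation of 6.81% and 6.85% in control cells, against a median of 8.51% over genes with a mean of at least 5 CPM. For *Skil*, *Tgfbi* and *Ltbp2* the difference between the group means was smaller than the range of the 3 libraries of either group, while it was seen in each pair.

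As counts, 1 of the 8 was lower with no overlap between the groups (*Pmepa1*), where 7.09% of all genes tested were. Lower in all 3 pairs were 5 of the 8 (*Pmepa1*, *Skil*, *Tgfbi*, *Ltbp2* and, by hardly any margin, *Bambi*), where 23.6% of all genes were. By edgeR with an unadjusted p under 0.05, *Pmepa1* alone was lower and none higher, where 3.63% of all genes were lower and 4.98% higher. After adjustment over all genes, edgeR called none of the 8, while it called 0.00703% of genes in each direction, and DESeq2 called *Pmepa1* among the 0.45% of genes it gave as lower. With the replicate number as a block, *Pmepa1*, *Skil* and *Tgfbi* were called lower, where 0.816% of genes were called lower and 0.83% higher. *Pmepa1* was called by the blocked fit whichever pair was left out, whereas *Skil* and *Tgfbi* were called without pair 3, along with *Ltbp2*, but not without pair 1 or pair 2. Those fits called 0.0773%, 0.323% and 2.85% of all genes lower without pairs 1, 2 and 3. Because this contrast chose the genes, these shares describe them and carry no further weight. The median log2 fold change of the 8 was -0.18, with -0.18, -0.11 and -0.22 in pairs 1, 2 and 3, beside 0.01 over all genes tested.

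The profile of *Pmepa1* over the 6 libraries was most like those of *Eif4a1*, *Pum3* and *Col6a3* among 10051 genes with a mean of at least 5 CPM, with a Pearson's r of 0.997 for each. Their log2 fold changes were much closer to 0, at -0.13, -0.21 and -0.31. *Skil* was most like *Angptl6*, *Ank2* and *Phlda1* (r from 0.969 to 0.986), *Ski* like *Tmem147*, *Mrpl2* and *Nup188*, *Smad7* like *Sh2b3*, *Elovl1* and *Adcy3*, and *Smad6* like *Ing3*, *Patl1* and *Egr1*. For *Tgfbi* the closest were *Col1a2*, a chain of type I collagen, *Rps9* and *Wwox*, and for *Ltbp2* they were *Cacng7*, *Nenf* and *Slc39a7*. The closest to *Bambi* were *Dock8*, *Idh1* and *Susd5*, each with a log2 fold change between -0.03 and -0.01. With 6 libraries that share 2 groups and 3 replicate numbers, such likeness is given as a description.

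Other genes that TGF-β induces had mostly negative log2 fold changes, and how many of them passed depended on the fit. Of 34 such genes, listed from general knowledge and all tested, 30 had a negative log2 fold change, where 48.0% of all genes tested did. At an unadjusted p under 0.05, edgeR gave 11 lower and 1 higher, where 3.63% of all genes were lower and 4.98% higher. That total of 12 was 7 without control replicate 1. Adjusted over all genes, edgeR gave *Adam12* alone as lower and DESeq2 gave 5, and with the replicate block 12 were lower and 2 higher, where 0.816% of all genes were lower and 0.83% higher. Of those lower with the block, *Adam12* alone also passed without pair 1 and 4 passed without pair 2. Without pair 3, 17 genes of the list were lower, 12 of them those of the blocked fit over all pairs, in a fit that called 2.85% of all genes lower. The median was -0.21, beside 0.01 over all genes tested and -0.18 over the 8.

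*Adam12*, a metalloprotease gene, averaged 96.7 ± 12.3 CPM (SD, n = 3) in control cells and 38.9 ± 1.39 CPM (SD, n = 3) after *Sephs1* siRNA. Its log2 fold change of -1.31 (standard error 0.10) was close to that of *Pmepa1* (edgeR: adjusted p of 0.0403 unpaired, 0.0153 blocked). Without any 1 library other than control replicate 2, edgeR gave *Adam12* an adjusted p between 0.132 and 0.316. *Il11*, a cytokine gene, had a value of -0.92 on the log2 scale (edgeR: adjusted p of 0.342 unpaired, 0.0445 blocked). *Ctgf* and *Tnc*, genes of matricellular proteins named after their values were seen, were at -0.51 and -0.55 on that scale (edgeR: adjusted p of 0.36 for each unpaired, 0.0211 and 0.0176 blocked). In the other direction, the transcription factor gene *Snai2* averaged 66.9 ± 7.49 CPM (SD, n = 3) in control cells and 83.7 ± 10.7 CPM (SD, n = 3) after *Sephs1* siRNA (edgeR: adjusted p of 0.545 unpaired, 0.0438 blocked). The CDK inhibitor gene *Cdkn2b* had a log2 fold change of 0.45 (edgeR: adjusted p of 0.669 unpaired, 0.0438 blocked), and of 0.18 without *Sephs1* siRNA replicate 3. The blocked calls of *Snai2* and *Cdkn2b* were both lost without pair 1 or pair 2. *Pmepa1* and *Adam12* thus had lower log2 fold changes than *Tgfbi*, *Skil* and these other genes.

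The summed level of smooth muscle and pericyte markers was lower with *Sephs1* siRNA. The 7 markers summed to between 672 and 809 CPM in control cells and between 564 and 631 CPM with *Sephs1* siRNA. Most of the sum came from *Acta2* and *Tagln*, which are themselves in the list of induced genes. *Acta2* overlapped between the groups, at 431 to 584 CPM in control cells and 363 to 461 CPM with *Sephs1* siRNA. *Tagln* did not, at 174 to 251 CPM and 139 to 170 CPM. Of the other 5, *Mylk* was higher without overlap, at 5.47 to 9.52 CPM in control cells and 9.63 to 12.5 CPM with *Sephs1* siRNA, and *Cnn1*, *Des*, *Rgs5* and *Myh11* overlapped between the groups. *Myh11*, which defines smooth muscle, was at 0.113 CPM or less in every library, and *Rgs5*, which defines pericytes, was at 0.802 CPM or less. The 10 fibroblast markers summed to between 18904 and 26171 CPM in control cells and between 18222 and 23399 CPM with *Sephs1* siRNA, with overlap. The part of such cells in the values of *Tgfbi*, *Ltbp2* and the list was not tested.

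The genes upstream of *Pmepa1* and the other targets had values on both sides of 0. Of 25 genes of TGF-β ligands, their activation, receptors and SMADs, edgeR gave 2 lower and 0 higher at an unadjusted p under 0.05. Of all genes tested, 3.63% were lower and 4.98% higher. None passed after adjustment over all genes by edgeR or DESeq2. With the block, 7 of the 25 were lower and 5 higher at an unadjusted p under 0.05, beside 1595 and 1867 of the 14223 genes tested. After adjustment, the block gave *Ltbp1* and *Thbs1* as lower, where 0.816% of all genes were lower and 0.83% higher. *Thbs1*, a gene of a matrix protein that can activate latent TGF-β, was named after its values were seen. Neither gene was called once pair 1 or pair 2 was left out. Without pair 3 both were called lower. In that fit *Tgfbr3* and *Inhba*, named after their values were seen, were called higher along with *Itgb8*. It called 406 of all genes lower and 789 higher. *Tgfb1*, the ligand gene, averaged 45.9 ± 3.98 CPM (SD, n = 3) in control cells and 38.7 ± 2.30 CPM (SD, n = 3) after *Sephs1* siRNA (edgeR: adjusted p of 0.516 unpaired, 0.0738 blocked). *Ltbp1*, which tethers latent TGF-β to the matrix and is a relative of *Ltbp2*, had a log2 fold change of -0.34 (edgeR: adjusted p of 0.425 unpaired, 0.0378 blocked). The ligand gene *Tgfb3* and the integrin gene *Itgb8* had log2 fold changes of 0.15 and 0.78, with standard errors of 0.07 and 0.41. Neither passed unpaired or with the block over all pairs. *Smad2*, *Smad3* and *Smad4*, which carry the signal to DNA and were named after their values were seen, had log2 fold changes of -0.00, -0.04 and 0.00. The median of this list was -0.01.

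Inhibitors outside the set had values near 0 for the most part, as *Smad7*, *Smad6* and *Bambi* did. Among 18 tested, edgeR gave *Sik1* as higher and no gene as lower at an unadjusted p under 0.05. Of all genes, 3.63% were lower and 4.98% higher. The median of the 18 was -0.03, and none of them passed after adjustment over all genes by edgeR or DESeq2. *Sik1*, a kinase gene that TGF-β induces, averaged 2.39 ± 0.627 CPM (SD, n = 3) in control cells and 3.69 ± 0.848 CPM (SD, n = 3) after *Sephs1* siRNA (edgeR: adjusted p of 0.566 unpaired, 0.0762 blocked). *Dcn*, the gene of decorin, a matrix proteoglycan that binds TGF-β, had a value of 0.24 on the log2 scale (edgeR: adjusted p of 0.638 unpaired, 0.0392 blocked), and its blocked call was lost without pair 1 or pair 2. *Tgif1*, a corepressor of SMADs, and *Ppm1a*, a SMAD phosphatase, had log2 fold changes of -0.24 and -0.11, and neither passed in either fit.

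The BMP branch, which *Smad6*, *Smad7* and *Bambi* also restrain, had values on both sides of 0. Of 13 BMP-SMAD induced genes, 12 had reads in every library, and their median was 0.13. Among these 12, edgeR gave *Id3* as higher and *Nog* as lower at an unadjusted p under 0.05. Of all genes, 3.63% were lower and 4.98% higher. *Id3*, an inhibitor of basic helix-loop-helix factors, averaged 47.1 ± 1.78 CPM (SD, n = 3) in control cells and 68.3 ± 6.68 CPM (SD, n = 3) after *Sephs1* siRNA. Its log2 fold change was 0.53 with a standard error of 0.09 (edgeR: adjusted p of 0.333 unpaired, 0.0392 blocked). *Nog*, the gene of the BMP antagonist noggin, had a log2 fold change of -0.75 (edgeR: adjusted p of 0.547 unpaired, 0.0839 blocked). After adjustment over all genes, none of the 12 passed by edgeR and *Id3* passed by DESeq2. With the block, *Id3* and *Grem1*, a BMP antagonist gene named after its values were seen, were higher and no gene of the list lower. Of all genes, 0.816% were lower and 0.83% higher. Neither *Id3* nor *Grem1* passed without pair 1, nor *Id3* without pair 2. The related *Id2* and the factor gene *Runx2* had log2 fold changes of 0.20 and -0.19, and neither passed. Of 20 BMP ligands, receptors, SMADs and antagonists, edgeR gave 0 and DESeq2 gave 1 at an unadjusted p under 0.05. At that threshold with the block, edgeR gave 3 lower and 3 higher, beside 1595 and 1867 of the 14223 genes tested. Among the 20, the ligand gene *Bmp4* was at -0.85 on the log2 scale (standard error 0.37), with pair 3 in the opposite direction to the others. The receptor gene *Neo1*, the ligand gene *Gdf5* and the antagonist gene *Chrdl2* had log2 fold changes of -0.22, 0.26 and 0.36, and none passed.

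Genes of microfibrils, to which LTBP2 belongs, and of elastic fibres had mostly negative values like that of *Ltbp2*. *Ltbp1*, *Ltbp3* and *Ltbp4* are also in the list of ligands, receptors and SMADs, and *Lox* is in that of induced genes. Of 18 tested, 13 were negative, where 48.0% of all genes tested were. At an unadjusted p under 0.05, edgeR gave 4 lower and 0 higher, where 3.63% of all genes were lower and 4.98% higher. After adjustment over all genes, none passed by edgeR and *Fbn1* passed by DESeq2. With the block, 4 were lower, *Ltbp1* of the upstream list among them, and 1 was higher, where 0.816% of all genes were lower and 0.83% higher. Of the list genes so called, only *Fbn1* passed without pair 2 and none without pair 1. *Fbn1*, the gene of fibrillin-1, to which LTBP2 binds, averaged 591 ± 58.4 CPM (SD, n = 3) in control cells and 404 ± 44.0 CPM (SD, n = 3) after *Sephs1* siRNA. Its log2 fold change was -0.55 with a standard error of 0.11 (edgeR: adjusted p of 0.36 unpaired, 0.0183 blocked), against -0.28 for *Ltbp2*. *Fbln1*, a fibulin gene, and *Efemp2*, which encodes fibulin-4, had log2 fold changes of 0.39 and 0.10 (edgeR: adjusted p of 0.754 and 0.783 unpaired, 0.0392 and 0.201 blocked). The median of the list was -0.17, against -0.18 over the 8.

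**Figure D4:**
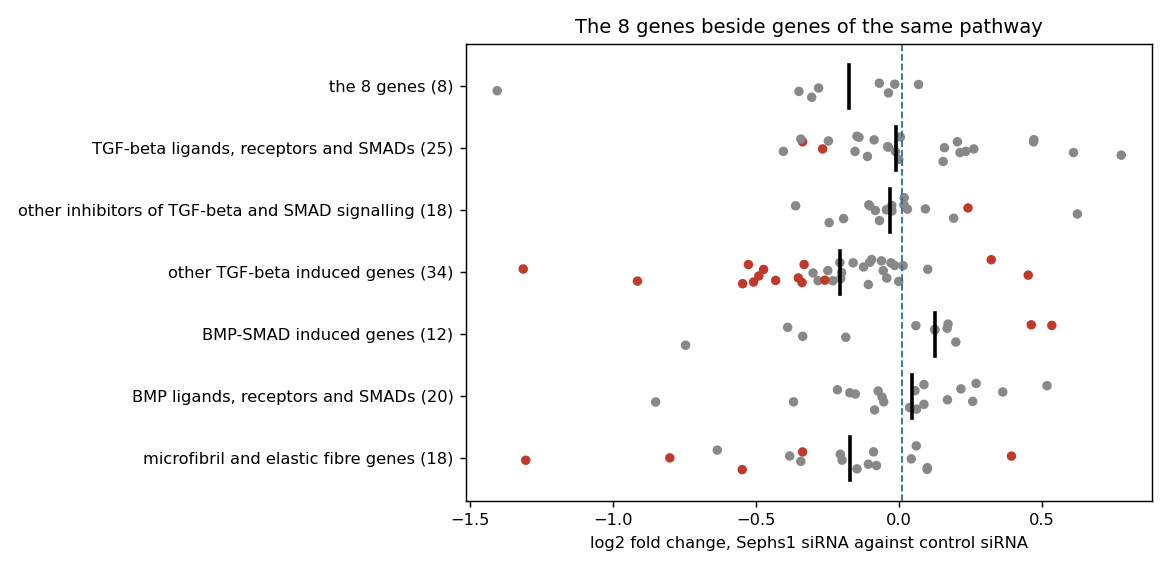
Log2 fold changes of the 8 genes and of the genes of 6 lists (number of genes tested in brackets); black bars mark medians, the dashed line marks the median over all genes tested, and red points of the lists are genes at an adjusted p under 0.05 with the replicate block. Induced genes and microfibril and elastic fibre genes lie mostly below 0 (medians -0.21 and -0.17). Ligands, receptors and SMADs lie around 0 (-0.01) and BMP-SMAD induced genes mostly above (0.13).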

How the data were processed

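RNA of control siRNA and *Sephs1* siRNA chondrocytes was sequenced with 3 libraries in each group. Reads were aligned to mm10 with HISAT2 2.1.0 and quantified with StringTie 1.3.4d, per the methods and the submitters' processing notes. The deposited values used here are counts, as whole reads for each gene with no scaling, and FPKM, which the authors scaled to transcript length and library size.

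Genes with at least 1 read in every library were tested on the counts with edgeR 4.0.16 in R 4.3.3 (TMM, quasi-likelihood test, Benjamini-Hochberg adjustment over 14223 genes). Standard errors are the log2 fold change over the square root of F. Each CPM of a named gene is TMM-scaled, while marker levels are relative to the total reads of the library. The alternatives were DESeq2 1.42.0, RLE size factors, no filter, each library left out, a replicate block, and limma 3.58.1 on FPKM at log2 with a pseudocount of 0.1 or 1. Coordinates came from RefSeq GRCm38.p6 by gene identifier, and exon overlaps from GENCODE M21.

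Same-number libraries had correlations of 0.47, 0.23 and 0.45 between deviations from their group means over 14223 genes. Between libraries of different numbers they ran from -0.418 to -0.027. Deviations within a group sum to 0, so these correlations are not independent of each other. All same-number values exceeded 0.1, so libraries of a number were treated as pairs. Values with the block are given where they change a call. The blocked fit without each pair was added after seeing the data. Replicates are stated to be biological, but whether they came from separate litters is not. Libraries of a group differed by far more than sampling noise. The members and gene lists were chosen with earlier results of these data known. Named list genes were, in each list, up to 2 lower and 2 higher ones by lowest p among those with a mean of at least 1 CPM, and genes outside this rule are said to be so.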

Additional observations from a re-analysis of the deposited data

How the results depend on the processing

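All 120 alternative log2 fold changes of the 8 genes lay within 1 SD of the reported ones, and 12 had the other sign, 7 of them for *Smad7* and 5 for *Bambi*. The SD here is that of log2 CPM between the libraries of a group, 0.43 for *Bambi*. Leaving out 1 of 3 libraries can hardly move a value beyond such a margin, so this says little about stability. Over all genes, edgeR called 2 genes, DESeq2 211, either FPKM fit 0 and the replicate block 234 (23, 87 and 1195 without pair 1, 2 or 3), and the count was 0 to 3 with 1 library left out. Genes at an unadjusted p under 0.05 numbered 1226, 3462 with the block (2068, 2246 and 3713 without pair 1, 2 or 3) and 725 to 1601 with 1 library left out. Of these, 57.8% were higher in the main fit against 80.0% and 79.8% with FPKM + 0.1 and FPKM + 1. The median log2 fold change over all genes was 0.062 and 0.041 in those FPKM fits, against 0.009 in the main fit. Negative values made up 34.9% of all genes in either FPKM fit, against 48.0%. The counts below use an unadjusted p under 0.05, with the block without pair 1, 2 or 3 in brackets. Ligands, receptors and SMADs numbered 2, then 4 with DESeq2, 3 with no filter, 1 and 5 with FPKM + 0.1 and FPKM + 1, 12 with the block (6, 11 and 15) and 1 to 4 with 1 library left out. Other inhibitors numbered 1, then 2 with either FPKM fit, 4 with the block (4, 3 and 8) and 0 to 3 with 1 library left out. Other induced genes numbered 12, then 7 with FPKM + 0.1, 23 with the block (21, 21 and 25) and 7 to 13 with 1 library left out. BMP-SMAD induced genes numbered 2, then 1 with FPKM + 0.1, 5 with the block (4, 3 and 7) and 1 to 3 with 1 library left out. BMP ligands and receptors numbered 0, then 1 with DESeq2 and with FPKM + 1, 6 with the block (4, 4 and 6) and 0 to 2 with 1 library left out. Microfibril and elastic fibre genes numbered 4, then 13 with the block (9, 11 and 14) and 3 to 5 with 1 library left out. The cause of these shifts was not tested. Of 360 alternatives for named list genes and *Sephs1*, 34 changed the call and 0 the sign. Counting error was at most 3.52% for any of the 8 genes, so the spread between 3 libraries limits the precision.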
